A study of Mus musculus with 20 samples.

Results

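The genes described here are the ligands and receptors of the tumor necrosis factor (TNF) superfamily, measured by RNA-seq in kidneys of Alport mice. They were chosen by symbol: Tnf, every Tnfsf and Tnfrsf gene with a number, and Lta, Ltb, Ltbr, Cd40, Cd40lg, Fas, Fasl, Cd27, Cd70, Eda2r and Ngfr. The rule found 44 of the 47069 genes in the count table, of which 17 are ligands, 26 are receptors and 1, Tnfsf13os, is an antisense transcript. A filter on low counts kept 35 of them, 12 ligands and 23 receptors, among 17622 genes in all.

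The study compared 4 groups of mice of the cross 129SJ x C57Bl/6J, killed at 15 weeks of age. The WT group (5 mice) carried intact Col4a3 and was untreated. The other groups were all Col4a3-/-, lacking a collagen IV chain of the glomerular basement membrane. From 5 weeks of age the Veh group (6 mice) had weekly subcutaneous injections of PBS. The Anti-miR-21 group (6 mice) had weekly Lademirsen, an oligonucleotide against miR-21, at 50 mg/kg in PBS. The ACEi group (3 mice) drank water with ramipril, an inhibitor of angiotensin-converting enzyme, at 11 mg/L (a deposited library list gives a dose per body weight instead). By the study's methods the mice were F1 males, the WT mice were littermates, and mice on ramipril also received PBS. WT mice had no injections, so genotype and vehicle cannot be told apart in Veh against WT.

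TNF superfamily ligands are mostly membrane proteins that act as trimers, some of them after shedding from the cell surface. Death domain receptors bind adaptors such as FADD and TRADD and can start cell death or NF-kB signalling. Receptors without a death domain recruit TRAF proteins and mainly activate NF-kB and MAP kinases, and decoy receptors bind ligand without a full signal. In the kidney the family is best known from inflammation, tubular injury and leukocyte recruitment.

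Lademirsen is directed at miR-21, whose mature mouse form is shown with its seed (bases 2 to 8) in capitals, beside the places where a member's 3′ UTR holds the complement of that seed, also in capitals. The miRNA sequence comes from RefSeq (GRCm38.p6), and the 27-base windows come from GRCm38 with GENCODE gene models, read 5′ to 3′ along the transcript.
mmu-miR-21a-5p: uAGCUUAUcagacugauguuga
Fasl: catttgactgATAAGCTagagactgaa
Tnfsf10: aagacaagagATAAGCTggtgtacccc
Tnfsf13b: agccactcacATAAGCTctgctttgag

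The capitals lie at chr1:161781129-161781135 (minus strand) for Fasl, chr3:27338808-27338814 (plus strand) for Tnfsf10 and chr8:10036205-10036211 (plus strand) for Tnfsf13b. Only the Fasl match is followed by an A. The 7 letters were found in the 3′ UTR of 3 of 43 members (6.98%) and of 1588 of 21020 genes (7.55%), so members held the match about as often as genes in general. A match is not evidence of binding. None of the 3 was higher under Anti-miR-21 than in Veh: Tnfsf13b fell, and Fasl and Tnfsf10 did not pass the test (values are given with the treatments). Whether miR-21 acts directly on any of the 3 was not tested.

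NF-kB is the transcription factor downstream of most of these receptors and binds DNA motifs. A single spelling was searched, GGGA, any 2 bases and TTCC. The search covered both strands from 250 bases before to 50 bases after each RefSeq gene start. Other spellings and sites outside this window were not searched. The spelling was present for 1 of 33 members with a promoter in the table (3.03%) and for 441 of 27025 genes (1.63%). The member was Ltb, which encodes lymphotoxin beta, with the match starting 87 bases before the gene start. Its window, chr17:35194257-35194556 on the plus strand of GRCm38.p6, is shown with the match in capitals. Whether NF-kB acts there was not tested.
Ltb: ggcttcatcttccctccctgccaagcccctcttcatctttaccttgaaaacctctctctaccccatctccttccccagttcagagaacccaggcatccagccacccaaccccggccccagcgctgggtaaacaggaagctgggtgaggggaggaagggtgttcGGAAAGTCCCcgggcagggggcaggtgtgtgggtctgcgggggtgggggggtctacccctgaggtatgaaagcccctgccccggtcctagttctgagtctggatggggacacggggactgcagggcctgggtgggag

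Totals of estimated counts ran from 28474301 to 29479629 per mouse. Col4a3, the inactivated gene, lay between 194 and 238 CPM (counts scaled to library size) in the WT mice and between 27.9 and 74.9 CPM in the 15 Col4a3-/- mice, without overlap, which checks the genotype labels only. The labels call the tissue kidney while their extraction text names adipose tissue. The summed proximal tubule markers were at least 1162 CPM in every mouse. The summed adipocyte markers were 90.1 to 120 CPM in the Veh mice A1, A4 and A9 and 99.7 CPM in the Anti-miR-21 mouse A12, against at most 22.4 CPM in every other mouse, and results were recomputed without these 4 libraries. In whole kidney, fewer cells of a type and less RNA per cell cannot be told apart.

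The receptors were the most abundant members. Levels of different genes were compared as FPKM (fragments scaled by gene length and library total), which the authors computed without scaling beyond library totals. In WT kidneys the highest mean FPKM belonged to Ltbr (53.5), the lymphotoxin beta receptor, Tnfrsf21 (50.7), known as death receptor 6, and Tnfrsf1a (27.9), the main TNF receptor of parenchymal cells. Tnfrsf12a (22.5), the receptor of TWEAK, and Tnfsf12 (12.6), which encodes TWEAK, followed. In Veh kidneys the order was Tnfrsf12a (135), Tnfrsf1a (110), Ltbr (84.6), Tnfsf12 (42.4) and Tnfrsf21 (39.1). Tnf itself had a mean of 0.106 FPKM in WT and 3.83 FPKM in Veh kidneys. Tnfsf13b, which encodes the B-cell survival factor BAFF, went from 0.717 to 16.4 FPKM, the highest of the ligands in Veh after Tnfsf12.

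**Figure D1:**
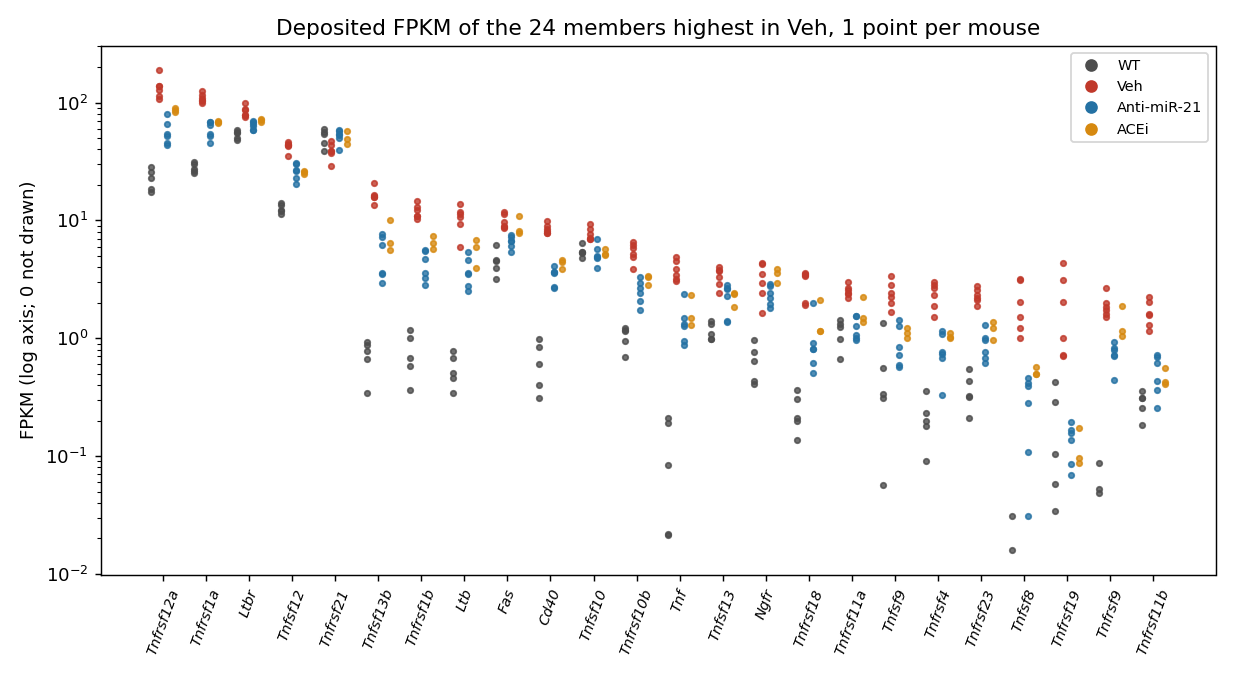
Deposited FPKM (log axis) of the 24 members with the highest mean in Veh, ordered by that mean, with 1 point per mouse and 1 colour per group; values of 0 (3 mice for Tnfsf8, 2 for Tnfrsf9) are not drawn. Receptors fill most of the left side, and the WT points lie below the Veh points for most genes, with Tnfrsf21 as the exception at 50.7 against 39.1 FPKM.

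Veh against WT compared Col4a3-/- kidneys of mice given vehicle with kidneys of untreated WT mice. Of the 35 members tested, 31 were higher in Veh and 1 was lower at an adjusted p under 0.05. Over all 17622 genes, 39.0% were higher and 34.0% lower by the same test. The median log2 fold change was 2.0 over the members and 0.07 over all genes. The groups did not overlap for 28 members, 27 of them higher in Veh, against 28.8% of all genes that were higher without overlap. Some members passed the count filter only through Col4a3-/- mice, so a fall in Veh was hardly open to them. Among these, the highest WT count was 2 for Tnfsf11, 4 for Lta, 5 for Fasl and Tnfrsf9, 6 for Tnfsf8 and 9 for Cd27. Other members were low in WT too, which also left little room for a fall. Their highest WT count was 10 for Tnf and Tnfsf14, 14 for Eda2r, Tnfrsf14 and Tnfsf13b and 19 for Tnfrsf4. The counts here, by role and against WT below include them. With at least 10 counts in every mouse, 16 of 20 members were higher and 1 lower (median 1.33, against 0.04 over all genes). The shares of 39.0% and 34.0% belong to the 17622 genes, and the share of all genes called under this stricter filter is not given here. All adjusted p-values are from edgeR's quasi-likelihood test with Benjamini-Hochberg adjustment over all genes. The 32 calls held in each of the 11 fits that left out 1 mouse.

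Among ligands, 11 of 12 rose. Tnfsf8, the ligand of CD30, was at 0.0445, 0.246, 0, 0.123 and 0.0419 CPM in the WT mice, while Veh mice ran from 8.33 to 16.6 CPM with a median of 13.8. Every Veh mouse was far above every WT mouse. Its log2 fold change was 7.11 (SE 0.51, adjusted p = 1.85e-10), the highest of all members. Tnf was at 0.0445, 0.41, 0.0422, 0.368 and 0.168 CPM in WT and between 3.95 and 6.24 CPM in Veh (median 5.07), a log2 fold change of 4.57 (SE 0.38, adjusted p = 1.4e-09). Tnfsf13b was at 0.445, 0.574, 0.465, 0.368 and 0.378 CPM in WT and 7.71 to 10.8 CPM in Veh (median 8.09), a log2 fold change of 4.24 (SE 0.26). Neither gene's groups overlapped. The lymphotoxin genes Ltb (log2 fold change 3.65) and Lta (3.44), which lie beside Tnf on chromosome 17, rose too.

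Tnfsf11 encodes RANKL, the ligand of RANK. It had 2 counts over the 5 WT mice, both in A14, against 80 over the 6 Veh mice, a ratio of 22.4 (exact 95% counting interval 6.01 to 189). Fasl, the ligand of Fas, rose by a log2 fold change of 2.96 (SE 0.78), or 2.33 without the Veh mouse A16 and 4.29 without the WT mouse A14. Tnfsf14, which encodes LIGHT, rose by 1.94, and Tnfsf9, the ligand of 4-1BB, by 1.64, both on the log2 scale. Without the WT mouse A17 the log2 fold change of Tnfsf9 was 2.33. The log2 fold change was 4.25 for Lta and 7.86 for Tnfsf8 without the WT mouse A6, and 6.50 for Tnfsf11 without A14. Tnfsf12 rose by 1.15 (SE 0.08) and Tnfsf13, which encodes APRIL, by 0.81 (SE 0.20), but these neighbours overlap each other's read-through gene and the antisense Tnfsf13os, and reads may be split between them.

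Tnfsf10, which encodes the death ligand TRAIL, was the ligand that did not pass the test. WT mice were at 34.6, 31.1, 32.6, 28 and 38.7 CPM and Veh mice between 27.4 and 40.4 CPM (median 28.7), so the groups overlapped throughout. Its log2 fold change was -0.10 (SE 0.11, adjusted p = 0.449). Scaling decides its sign, since it was 0.49 with library totals alone, under which the median gene also moved by 0.65.

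**Figure D2:**
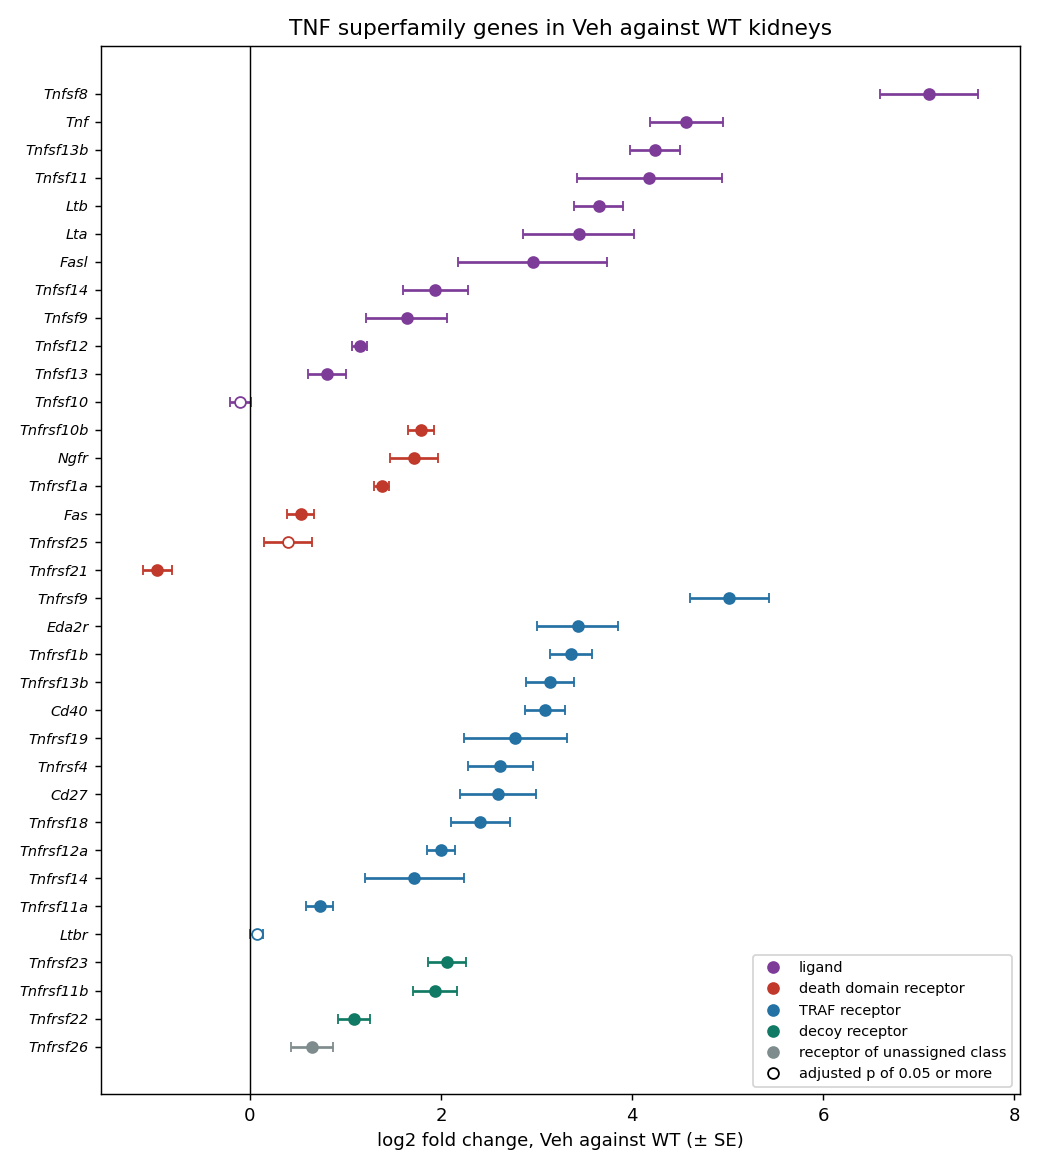
Log2 fold change (± SE) of the 35 tested members in Veh (6 mice) against WT (5 mice), grouped by role and coloured as in the key; open points had an adjusted p of 0.05 or more. All but Tnfsf10, Tnfrsf25, Ltbr and Tnfrsf21 (-0.97) are filled points to the right of 0, with Tnfsf8 farthest at 7.11.

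The 6 death domain receptors split, with 4 higher, 1 lower and 1 not passing. Tnfrsf1a was at 69.7, 69.3, 82.5, 75.4 and 68.4 CPM in WT and 176 to 213.8 CPM in Veh (median 186.3), without overlap, a log2 fold change of 1.38 (SE 0.08, adjusted p = 6.94e-12). Tnfrsf10b, the mouse TRAIL death receptor, rose by 1.79 (SE 0.14), and Ngfr, the p75 neurotrophin receptor, by 1.72 (SE 0.25). Fas rose by 0.53 (SE 0.14), with overlapping groups. Tnfrsf25, known as death receptor 3, had a log2 fold change of 0.40 (SE 0.25, adjusted p = 0.151), and it passed without the Veh mouse A4 (0.54, adjusted p = 0.0466) and without the 4 libraries with adipocyte markers (0.67, adjusted p = 0.0395). Tnfrsf21 was the member that fell: WT mice were at 277, 164, 238, 235 and 198 CPM and Veh mice at 81.8 to 150 CPM (median 109). The groups did not overlap, and the log2 fold change was -0.97 (SE 0.15, adjusted p = 6.36e-06).

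Of the 13 TRAF receptors tested, 12 rose. Tnfrsf9, which encodes the T-cell costimulator 4-1BB, was at 0.134, 0, 0.127, 0.204 and 0 CPM in WT and 2.67 to 4.39 CPM in Veh (median 2.92), a log2 fold change of 5.02 (SE 0.41, adjusted p = 9.11e-10). Tnfrsf1b, the TNF receptor of leukocytes and endothelium, was at 3.43, 6.52, 3.93, 5.52 and 1.93 CPM in WT and 38.4 to 53.3 CPM in Veh (median 42.4), a log2 fold change of 3.36 (SE 0.22). Tnfrsf12a was at 21.4, 21.2, 26.8, 31.6 and 30.2 CPM in WT and 81.5 to 144 CPM in Veh (median 101), a log2 fold change of 2.0 (SE 0.15). None of these groups overlapped. On the log2 scale Eda2r, a receptor of ectodysplasin A2, rose by 3.43. Tnfrsf13b, which encodes the BAFF and APRIL receptor TACI, rose by 3.14, and Cd40 by 3.09.

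The other costimulatory receptors moved the same way. Log2 fold changes were 2.62 for Tnfrsf4 (OX40), 2.60 for Cd27 and 2.41 for Tnfrsf18 (GITR). Tnfrsf14, the receptor of LIGHT, rose by 1.72 with overlapping groups, and Tnfrsf11a, which encodes RANK, rose by 0.73. Tnfrsf19, known as TROY, rose by 2.78 (SE 0.54), and here the Veh mice differed widely, at 9.98, 14 and 3.19 CPM in A1, A4 and A9 and 2.59, 2.56 and 6.49 CPM in A16, A19 and A20. Without the 4 libraries with adipocyte markers, which include the highest pair of Veh mice, its log2 fold change was 2.05 (adjusted p = 0.00313). Ltbr did not pass the test. It was at 134, 119, 141, 142 and 143 CPM in WT and 128 to 165 CPM in Veh (median 141), with a log2 fold change of 0.07 (SE 0.07, adjusted p = 0.423). Ltbr passed with library totals alone (0.65, equal to the shift of the median gene) and with upper-quartile scaling (0.18, adjusted p = 0.0412).

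All 3 decoy receptors rose. Tnfrsf11b, which encodes osteoprotegerin, a decoy for RANKL and TRAIL, had a log2 fold change of 1.94 (SE 0.23). The mouse TRAIL decoys Tnfrsf23 and Tnfrsf22 had log2 fold changes of 2.06 and 1.09. These are near-identical neighbours on chromosome 7, so reads may be split between them. Tnfrsf26, a neighbour with no assigned class, rose by 0.65 (SE 0.22) with overlapping groups.

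The other 9 members had too few counts to pass the filter. No mouse had more than 18 counts of any of them. Tnfsf15, the ligand of death receptor 3, had 0 to 4 counts in WT and 2 to 18 in Veh mice, and Tnfrsf8, which encodes CD30, had 0 to 4 and 7 to 15. Cd40lg had 0 to 6 and 3 to 8, Tnfsf18 (the GITR ligand) 0 to 1 and 1 to 14, and Tnfsf4 (the OX40 ligand) 0 to 3 and 1 to 4. The BAFF receptors Tnfrsf17 and Tnfrsf13c had 0 to 2 and 0 to 4 in WT and 1 to 5 and 2 to 11 in Veh mice. Cd70, the ligand of CD27, had no count in any WT mouse and 4 over the Veh mice, and Tnfsf13os had 2 to 7 and 2 to 5. The FPKM values rest on other gene models and listed Tnfsf15 above 0 in every mouse, such as the WT mouse A3 with 0 counts and 0.173 FPKM. Its levels were 0.173 to 0.329 FPKM in WT, 1.17 to 1.88 in Veh, 0.41 to 0.822 under Anti-miR-21 and 0.789 to 0.898 under ACEi, so Veh overlapped no other group. In the fit without a filter Tnfsf15 (log2 fold change 2.57, adjusted p = 0.00729), Tnfrsf8 (2.89, adjusted p = 0.0091) and Tnfsf18 (3.72, adjusted p = 0.00946) were higher in Veh. The other 6 did not pass there, and Tnfrsf8 was also lower than in Veh under Anti-miR-21 (-1.88, adjusted p = 0.0485) and ACEi (-3.34, adjusted p = 0.0322).

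Markers of several cell types moved between the same groups. All 6 macrophage markers were higher in Veh, with a summed level of 139 to 152 CPM in WT and 809 to 994 CPM in Veh. All 5 T-cell markers rose, from 2.09 to 3.08 CPM in WT and 12.7 to 36.4 CPM in Veh. Of 5 B and plasma cell markers 3 rose, as did 1 of 2 natural killer cell, 2 of 4 endothelial and 4 of 5 adipocyte markers. The adipocyte sum was 90.1 to 120 CPM in the Veh mice A1, A4 and A9. It was 8.76, 1.02 and 0.677 CPM in A16, A19 and A20, against 0.656 to 6.91 CPM in WT. All 4 fibroblast markers rose, from 109 to 275 CPM and 2463 to 3157 CPM, while all 4 proximal tubule markers fell, from 9596 to 12662 CPM and 1162 to 3120 CPM. No marker in these lists was at or under 3 counts in every mouse. The part of cell content in the changes of the TNF superfamily was not tested.

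**Figure D3:**
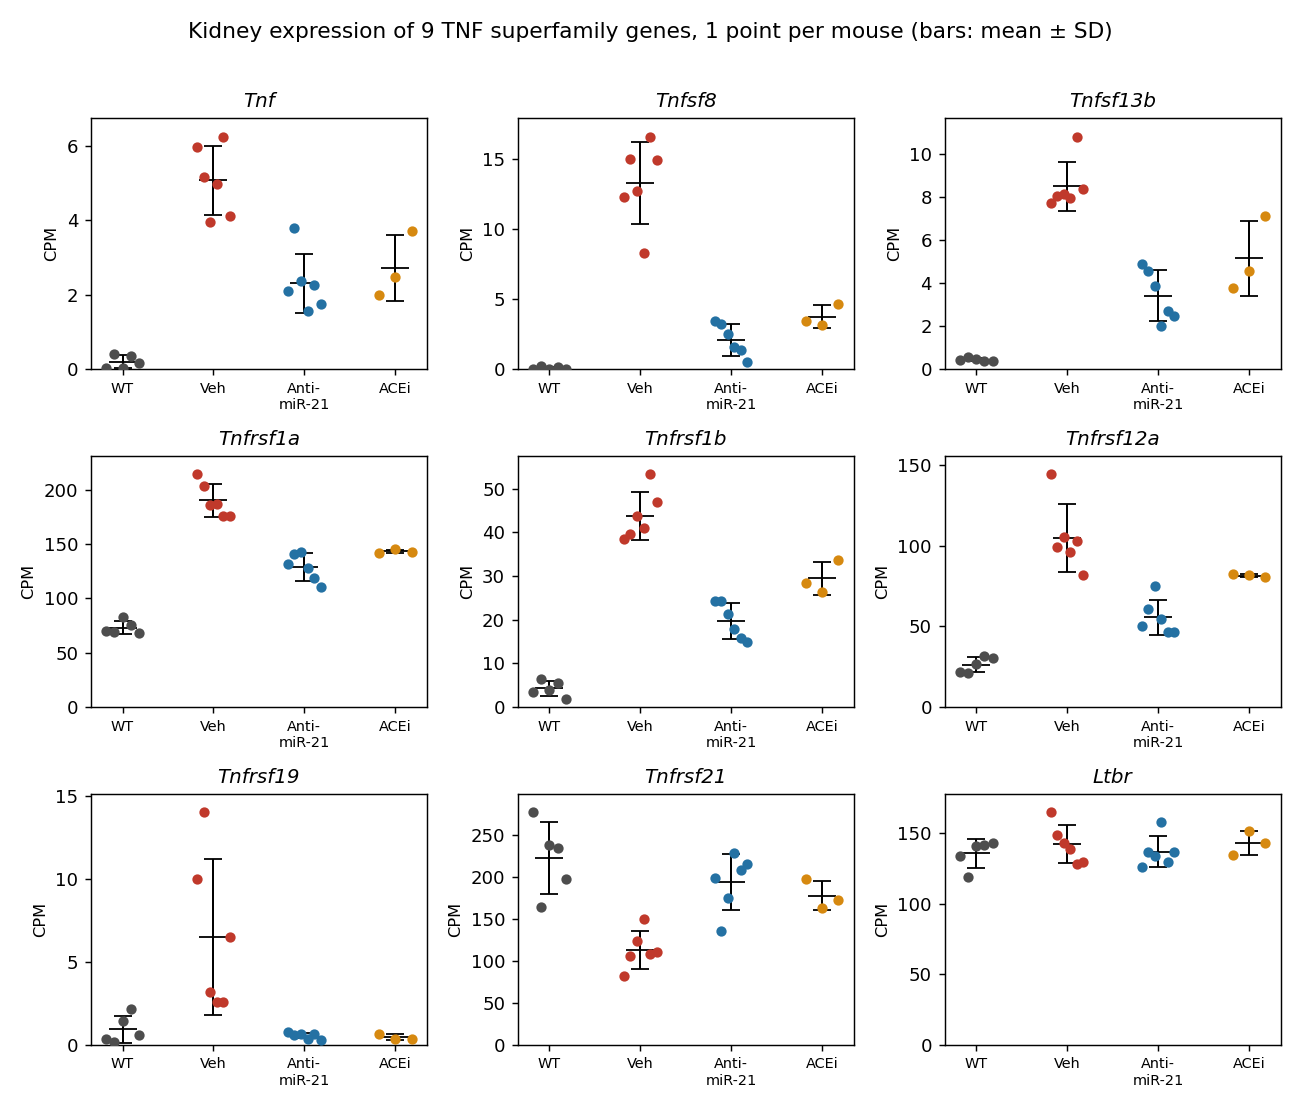
CPM of 9 members in each mouse (points) with group mean ± SD (bars), for WT (5), Veh (6), Anti-miR-21 (6) and ACEi (3); each axis starts at 0. Tnf, Tnfsf8, Tnfsf13b and the receptors Tnfrsf1a, Tnfrsf1b and Tnfrsf12a have their lowest mean in WT and highest in Veh, Tnfrsf19 is high in Veh alone, while Tnfrsf21 has the opposite order and Ltbr stays between 119 and 165 CPM.

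Each treatment was compared with Veh to ask what it changed in Col4a3-/- kidneys. Under Anti-miR-21, 23 of 35 members were lower than in Veh and 1, Tnfrsf21, was higher. Among all genes 30.5% were lower and 28.8% higher. The groups did not overlap for 18 members, all lower under Anti-miR-21, against 17.9% of all genes that were lower without overlap. Under ACEi, 14 members were lower and 1, again Tnfrsf21, was higher, where 19.1% of all genes were lower and 21.0% higher. Of the members, 15 were lower and 1 higher under ACEi without overlap, against 18.8% of all genes lower without overlap. The member medians were -0.90 and -0.45 on the log2 scale, against -0.04 and -0.05 over all genes. Both comparisons use the same 6 Veh mice, so their values are given side by side and no count of shared calls is drawn from them.

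The ACEi calls rested on few mice. Leaving out 1 mouse left 7 to 12 members lower, and 6 of the 15 calls held in all 9 such fits: Tnfsf8, Tnfsf12, Tnfrsf1a, Tnfrsf11b, Tnfrsf19 and Tnfrsf21. Calls in either direction numbered 8 without the ACEi mouse A13, 9 without the ACEi mouse A11 and 9 without the Veh mouse A19. Without the 4 libraries with adipocyte markers they also numbered 8, in a fit with 3 Veh mice. Under Anti-miR-21, 22 of 24 calls held in all 12 such fits, the exceptions being Cd27 and Eda2r.

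Among ligands, Tnfsf8 was between 0.543 and 3.43 CPM (median 2.05) in Anti-miR-21 mice and at 3.41, 3.18 and 4.67 CPM in ACEi mice, all below the lowest Veh mouse at 8.33 CPM. It fell by 2.65 on the log2 scale (SE 0.32, adjusted p = 7.68e-07) and by 1.82 (SE 0.39, adjusted p = 0.00114). Tnf was at 1.57 to 3.79 CPM (median 2.17) in Anti-miR-21 mice and 2, 2.47 and 3.71 CPM in ACEi mice, and the lowest Veh mouse was at 3.95 CPM. The log2 fold changes of Tnf were -1.13 (SE 0.27, adjusted p = 0.00131) and -0.89 (SE 0.34, adjusted p = 0.042). The ACEi call for Tnf was lost without any of A1, A4, A11, A13, A16 or A19. Tnfsf13b was at 2.02 to 4.88 CPM (median 3.28) and at 3.77, 4.58 and 7.12 CPM, again below every Veh mouse. Its log2 fold changes were -1.31 (SE 0.20) and -0.72 (SE 0.24, adjusted p = 0.0226).

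Ltb fell by 1.17 under Anti-miR-21 and by 0.65 under ACEi on the log2 scale, and Tnfsf12 by 0.35 and 0.45. The ACEi call for Ltb was lost when any one of 7 mice was left out. Lta fell by 1.69 under Anti-miR-21 and had a log2 fold change of -0.71 (SE 0.52, adjusted p = 0.291) under ACEi. Tnfsf9 fell by 1.09 under Anti-miR-21, against -0.85 (adjusted p = 0.159) under ACEi. Neither treatment passed the test for Tnfsf10 (-0.24 and -0.27), Tnfsf13 (-0.27 and -0.22), Tnfsf14 (-0.51 and -0.55), Tnfsf11 (-1.05 and 0.17) or Fasl (-0.52 and 0.26). Without the 4 libraries with adipocyte markers Tnfsf10 passed in both, at -0.31 (adjusted p = 0.0416) and -0.39 (adjusted p = 0.0397), while the Anti-miR-21 calls for Lta, Tnfsf9, Eda2r and Tnfrsf22 were lost.

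**Figure D4:**
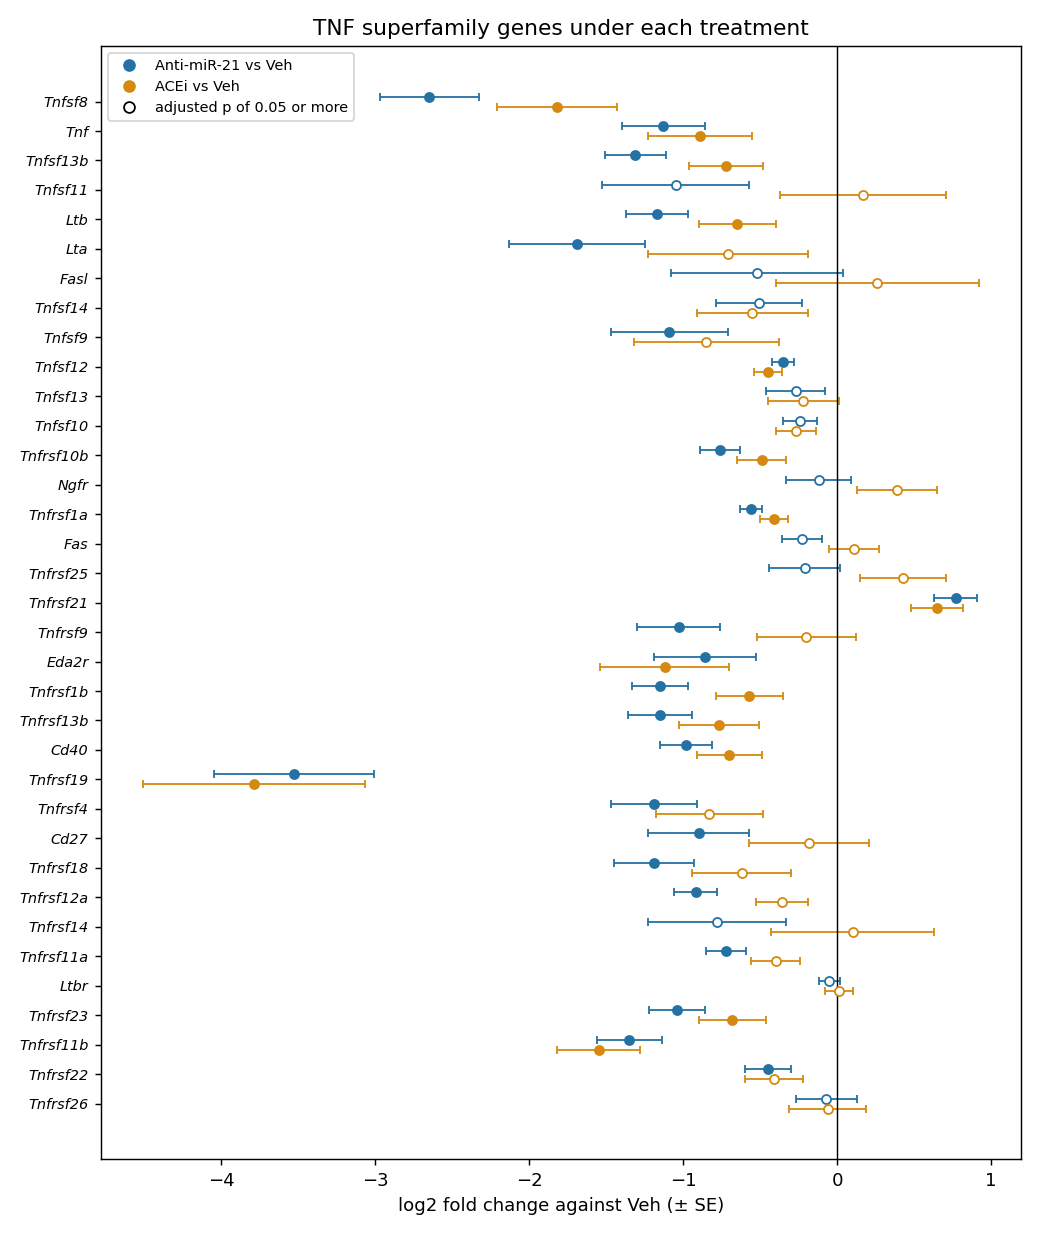
Log2 fold change (± SE) against Veh (6 mice) of the 35 tested members under Anti-miR-21 (6 mice, blue) and ACEi (3 mice, orange), in the order of the Veh against WT plot; open points had an adjusted p of 0.05 or more. Most points lie left of 0, Tnfrsf19 lies farthest left at -3.53 and -3.79, and Tnfrsf21 is the filled point right of 0 at 0.77 and 0.65.

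Of the death domain receptors, Tnfrsf1a was at 110 to 143 CPM (median 130) under Anti-miR-21 and 142, 145 and 143 CPM under ACEi, all below the lowest Veh mouse at 176 CPM. It fell by 0.56 (SE 0.07, adjusted p = 1.21e-06) and by 0.41 (SE 0.09, adjusted p = 0.00106). Tnfrsf10b fell by 0.76 and by 0.49. Tnfrsf21 was at 136 to 229 CPM (median 203.1) under Anti-miR-21 and 197, 163 and 173 CPM under ACEi. It was 0.77 (SE 0.14, adjusted p = 0.000114) and 0.65 (SE 0.17, adjusted p = 0.00508) higher than in Veh on the log2 scale, with overlap between Anti-miR-21 and Veh and none between ACEi and Veh. Fas (-0.23 and 0.11), Ngfr (-0.12 and 0.39) and Tnfrsf25 (-0.21 and 0.43) did not pass the test in either.

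Among TRAF receptors, 11 of 13 fell under Anti-miR-21 and 5 under ACEi. Tnfrsf19 was at 0.31 to 0.74 CPM (median 0.615) and at 0.656, 0.358 and 0.375 CPM, below every Veh mouse. Its log2 fold changes were -3.53 (SE 0.52) and -3.79 (SE 0.72), and -2.69 and -3.02 without the 4 libraries with adipocyte markers. Tnfrsf1b was at 15 to 24.3 CPM (median 19.7) and at 28.4, 26.4 and 33.6 CPM. It fell by 1.15 (SE 0.18, adjusted p = 1.64e-05) and by 0.57 (SE 0.22, adjusted p = 0.0428), and the ACEi call was lost whichever mouse was left out. Tnfrsf12a was at 46.6 to 74.8 CPM (median 52.3) and at 82.2, 81.5 and 80.6 CPM, so ACEi mice overlapped Veh and Anti-miR-21 mice did not. Its log2 fold changes were -0.92 (SE 0.14, adjusted p = 9.17e-06) and -0.36 (SE 0.17, adjusted p = 0.0886).

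Cd40 (-0.98 and -0.70), Tnfrsf13b (-1.15 and -0.77) and Eda2r (-0.86 and -1.12) fell under both treatments. Eda2r went opposite ways under Anti-miR-21 in the flow cells the libraries were run on, at -1.18 in A and 0.32 in B. That was the exception among 24 members called. All 15 called under ACEi had the same sign in both flow cells, as had all 32 called in Veh against WT. These members were called on the mice of both flow cells together, so the selection favoured the same sign. The agreement is therefore no separate check on flow cell. Anti-miR-21 has 1 mouse in flow cell B and ACEi 1 in A, so the treated values in those flow cells rest on single mice. With flow cell as a term 11 members passed under ACEi, where Eda2r, Ltb, Tnf and Tnfrsf1b were lost (adjusted p = 0.0677, 0.0617, 0.0619 and 0.0646 in edgeR). Tnfrsf9 fell by 1.03 under Anti-miR-21 and had a log2 fold change of -0.20 (SE 0.32, adjusted p = 0.648) under ACEi. The pairs were -1.19 and -0.83 for Tnfrsf4, -1.19 and -0.62 for Tnfrsf18, -0.90 and -0.18 for Cd27 and -0.72 and -0.40 for Tnfrsf11a, of which only the Anti-miR-21 values passed. Tnfrsf14 (-0.78 and 0.10) and Ltbr (-0.05 and 0.01) passed in neither. With library totals alone Ltbr was at -0.26 under ACEi (adjusted p = 0.0169), where the median gene moved by -0.32.

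All 3 decoys fell under Anti-miR-21. Tnfrsf11b was at 0.814 to 1.94 CPM (median 1.49) under Anti-miR-21 and 1.48, 1.22 and 1.12 CPM under ACEi, below the lowest Veh mouse at 2.87 CPM, with log2 fold changes of -1.35 (SE 0.21) and -1.55 (SE 0.27). Tnfrsf23 fell by 1.04 and 0.68. Tnfrsf22 fell by 0.45 under Anti-miR-21, against -0.41 (adjusted p = 0.0918) under ACEi. Tnfrsf26 was at -0.07 and -0.06 on the log2 scale and did not pass. All 6 macrophage markers were lower than in Veh under each treatment, with summed levels of 347 to 522 CPM under Anti-miR-21 and 449 to 535 CPM under ACEi. Of the 5 T-cell markers 4 fell under Anti-miR-21 and none passed under ACEi. Fibroblast markers fell in 3 of 4 and 2 of 4, and all 4 proximal tubule markers rose under each. Adipocyte markers fell in 4 of 5 under ACEi, where their sum was 0.394 to 3.04 CPM. That fall rests on the Veh mice A1, A4 and A9. The Veh mice A16, A19 and A20 had sums of 8.76, 1.02 and 0.677 CPM. The part of these cell types in the treated values was not tested.

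Comparing the treatments directly, no member passed at an adjusted p under 0.05 in edgeR, where 0.584% of all genes did in either direction. At an unadjusted p under 0.05 there were 9 of 35 members, against 14.5% of all genes, and DESeq2 called 1, Tnfrsf9. The study's own criterion (unadjusted p under 0.01 and a fold change of 1.2 on FPKM) took Tnfrsf9, Tnfrsf1b and Tnfrsf12a. Log2 fold changes of Anti-miR-21 against ACEi were -0.55 (SE 0.16, adjusted p = 0.119) for Tnfrsf12a, -0.57 (SE 0.21, adjusted p = 0.222) for Tnfrsf1b and -0.83 (SE 0.32, adjusted p = 0.241) for Tnfrsf9. These 3 genes, Cd40 and Fas, 5 of 35 members, were lower without overlap between the groups, against 4.80% of all genes. Tnfsf8 was at -0.82 (SE 0.37, adjusted p = 0.318). The range over members was -1.22 to 0.26, with a median of -0.35 against 0.01 over all genes. With 3 ACEi mice the lack of a call does not show that the treatments act alike.

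Against WT, most members were still higher in treated mice. Under Anti-miR-21, 26 members were higher than in WT and 1, Tnfsf10, was lower, where 23.9% of all genes were higher and 19.8% lower. Under ACEi, 27 were higher and 1, again Tnfsf10, was lower, where 25.2% of all genes were higher and 22.5% lower. Tnfsf10 was at -0.33 (SE 0.11, adjusted p = 0.0212) and -0.37 (SE 0.14, adjusted p = 0.0323), no lower call was made with library totals alone, the Anti-miR-21 call was lost without any one of A3, A10 or A18 and the ACEi call without any one of A3, A11, A13, A18 or A23, and the Anti-miR-21 call was also lost without the 4 libraries with adipocyte markers (-0.25, adjusted p = 0.0578). Tnfsf8 was still 4.46 (SE 0.55) and 5.28 (SE 0.57) higher than in WT on the log2 scale, Tnf 3.44 and 3.68, and Tnfrsf1b 2.21 and 2.78. Tnfrsf19 (-0.75 and -1.0), Tnfrsf21 (-0.20 and -0.32), Tnfrsf11a (0.01 and 0.33), Tnfsf9 (0.56 and 0.79) and Ltbr (0.02 and 0.08) did not pass against WT in either. Tnfrsf11b was at 0.59 (adjusted p = 0.0454) and 0.40 (adjusted p = 0.249).

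Genes that act beside or below the receptors were read from lists of 31 signalling genes and 22 targets of TNF and NF-kB. In Veh against WT 14 signalling genes rose and 8 fell, with a median of 0.09, where 39.0% of all genes rose and 34.0% fell with a median of 0.07. The largest rises were Ripk3 (log2 fold change 3.08) and Mlkl (2.66), the kinase and pore former of necroptosis, the NF-kB subunit Rel (2.48) and Rhbdf2 (1.73), a partner of the sheddase that releases TNF. The largest falls were Chuk (-1.53), an IkB kinase, Timp3 (-1.38), an inhibitor of that sheddase, Map3k5 (-0.53) and Cflar (-0.31), which restrains caspase-8. The split depends on scaling: with library totals alone 28 rose and 2 fell, and with upper-quartile scaling 15 and 6.

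Under Anti-miR-21 6 signalling genes rose and 13 fell, with a median of -0.10, where 28.8% of all genes rose and 30.5% fell with a median of -0.04. Under ACEi 5 rose and 9 fell, with a median of -0.11, where 21.0% rose and 19.1% fell with a median of -0.05. With library totals alone these were 2 and 25, and 2 and 20, and upper-quartile scaling gave 5 and 16, and 3 and 12. Ripk3 (-1.35 and -0.72), Rhbdf2 (-0.78 and -0.38) and Map3k14 (-0.61 and -0.39), the NF-kB inducing kinase, fell under both. The NF-kB subunit genes Nfkb1 (-0.70 and -0.46) and Rela (-0.59 and -0.41) did too. Rel (-0.94) and Mlkl (-0.79) fell under Anti-miR-21, and under ACEi they were at -0.54 (adjusted p = 0.151) and -0.33 (adjusted p = 0.385). Chuk (1.04 and 1.01), Timp3 (0.96 and 1.0) and Cflar (0.37 and 0.39) rose under both, as did Traf6 (0.23 in each). Map3k5 rose under Anti-miR-21 (0.38, against 0.21 and an adjusted p of 0.0911 under ACEi), and Cyld under ACEi (0.23, against 0.11 and an adjusted p of 0.116 under Anti-miR-21). None passed between the treatments in edgeR, with 5 of 31 at an unadjusted p under 0.05, against 14.5% of all genes, and 2 called by DESeq2.

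Of the 22 target genes 21 rose in Veh and Sod2, the mitochondrial superoxide dismutase, fell (-1.73), with a median of 2.79 against 0.07 over all genes. Of all genes 39.0% rose and 34.0% fell. Some target genes had fewer than 10 counts in at least 1 mouse, and a fall from a low WT level is hardly open to such genes. With at least 10 counts in every mouse, 15 of 16 target genes were higher in Veh and 1 was lower. The median was then 2.67, against 0.04 over all genes. The chemokine genes Ccl20 (8.69) and Ccl2 (7.14), the injury marker Lcn2 (6.95) and Il6 (6.31) rose most, and Tnfaip2 (0.85), Nfkbia (1.56) and Cx3cl1 (1.78) rose least. Under Anti-miR-21 17 fell and 1, Sod2 (1.21), rose, with a median of -0.78 against -0.04 over all genes, of which 30.5% fell and 28.8% rose. Under ACEi 6 fell and Sod2 (1.0) rose, with a median of -0.36 against -0.05 over all genes, of which 19.1% fell and 21.0% rose. Lcn2 (-2.58 and -2.27), Csf1 (-1.21 and -0.82) and Relb (-1.0 and -0.59) fell under both, as did Tnfaip2 (-0.51 and -0.63), Birc3 (-0.93 and -0.48) and Nfkb2 (-0.80 and -0.49). Il6 (-1.57), Bcl3 (-1.12), Cx3cl1 (-0.62) and Tnfaip3 (-0.60) fell under Anti-miR-21, and their ACEi values of -0.45, -0.55, -0.01 and -0.35 did not pass. The chemokine genes Ccl20, Ccl2, Cxcl2 and Cxcl10 passed under neither. Cx3cl1, a chemokine tethered to the cell surface, was lower under Anti-miR-21 than ACEi (-0.61, SE 0.12, adjusted p = 0.0254), and that call was lost without any one of A11, A13, A15, A22 or A23. In that comparison 12 of 22 target genes had an unadjusted p under 0.05 in edgeR, against 14.5% of all genes. The median was -0.40 over the target genes and 0.01 over all genes.

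**Figure D5:**
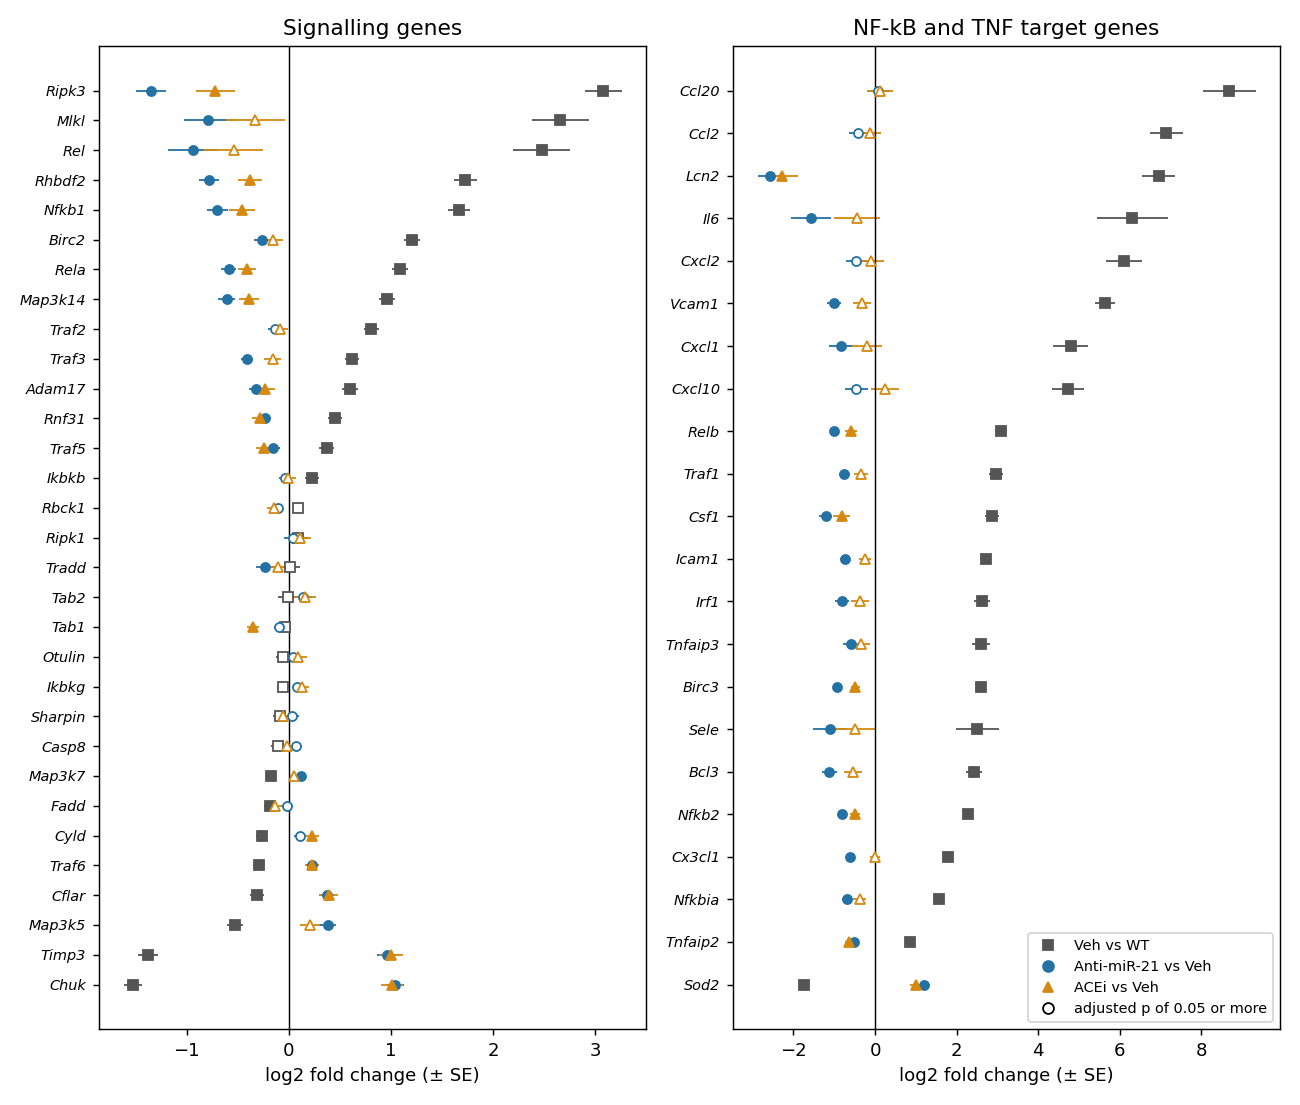
Log2 fold change (± SE) of 31 signalling genes (left) and 22 targets of TNF and NF-kB (right) in Veh against WT (grey squares), Anti-miR-21 against Veh (blue circles) and ACEi against Veh (orange triangles); open symbols had an adjusted p of 0.05 or more. Signalling genes lie on both sides of 0 in Veh, from Chuk (-1.53) to Ripk3 (3.08), and targets lie to the right except Sod2 (-1.73).

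Family genes whose symbols fall outside the rule were looked at as well. Relt, a receptor of the family, was at 0.169 to 0.82 CPM in WT and 7.34 to 9.32 CPM in Veh, a log2 fold change of 3.85 (SE 0.24), and fell by 1.37 and 0.73 under Anti-miR-21 and ACEi. Eda, the ligand ectodysplasin A, rose by 1.44 in Veh and fell by 0.81 and 0.73. Edar, its main receptor, fell by 1.06 in Veh and was at 0.17 and 0.04 under treatment, where it did not pass.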

How the data were processed

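Kidney RNA of 20 mice was analysed. Per the study's methods, the authors mapped paired-end HiSeq reads with OmicSoft software (build GRCm38) and deposited an estimated count (expected count) per Ensembl gene, not normalized. Of positive values 29.1% were not whole, and all were rounded. The authors also deposited FPKM values, scaled for length and library total on other gene models, and per library a count of alignments (70004591 to 73294858). Whether counting used strand is not given in the sources used here, so overlapping and antisense genes may share reads. Per-sample values in 3 columns matched no sample and were not used. No pair of libraries held identical values.

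Genes were filtered with filterByExpr (minimum count 10, total 15) and fitted over 4 groups with edgeR 4.0.16 (TMM scaling, quasi-likelihood test, R 4.3.3), with Benjamini-Hochberg adjustment at 0.05. CPM use TMM library sizes. The fit was tested on simulated data. Intervals cover counting error only. Each library is labelled as a separate mouse, and p-values measure the spread between mice. Replicate names are unique and pair no mice. Alternatives used DESeq2 1.42.0, limma 3.58.1 on log2(FPKM + 1) or log2(FPKM + 0.1), other scalings and filters, flow cell, single mice left out and, chosen after seeing the data, 4 libraries with adipocyte markers left out. In the alternatives, a gene that passed in neither fit was counted as unchanged whatever its sign. Within flow cells, mean log2(CPM + 0.1) was compared. Python 3.11.15 with scipy and matplotlib served for intervals and plots.

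The members, gene lists and markers were chosen with earlier results of these data known. Every tested member is named with values, untested members by counts, and of each list the 4 largest and 4 smallest changes among called genes.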

Additional observations from a re-analysis of the deposited data

Results flagged for a closer look

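In each group of 5 or 6 mice the highest and lowest mouse was compared with the others by Dixon's criterion on log2(CPM + 0.1). Of 105 checks 10 stood out, where chance gives about 1 in 20. In Veh mice these were Fasl in A16 (1.39 CPM, the others 0.249 to 0.364), Ltb in A9 (5.21 CPM, the others 9.32 to 12.6), Tnfrsf9 in A1 (4.39 CPM, the others 2.67 to 3.22) and Tnfsf13b in A19 (10.8 CPM, the others 7.71 to 8.35). In Anti-miR-21 mice they were Cd27 in A15 (0.443 CPM, the others 0.712 to 0.905), Fasl in A10 (0.0345 CPM, the others 0.262 to 0.517), Ltbr in A12 (158 CPM, the others 126 to 137) and Tnfrsf9 in A22 (1.05 CPM, the others 1.51 to 1.86). In WT mice they were Tnfrsf26 in A3 (1.74 CPM, the others 1.17 to 1.31) and Tnfsf11 in A14 (0.0845 CPM, the others 0).

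The target gene Cx3cl1 differed between the treatments, with a log2 fold change of -0.61 for Anti-miR-21 against ACEi in edgeR's test of that difference.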

How the results depend on the processing

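Counts of members called stayed within 1.5 times under most alternatives. With at least 10 counts in every mouse, which tests 20 members, 17 were called in Veh against WT, 14 in Anti-miR-21 against Veh, 15 in Anti-miR-21 against WT and 15 in ACEi against WT. In ACEi against Veh (15 called) there were 26 with FPKM + 1, 23 with FPKM + 0.1, 27 with FPKM + 1 and a mean of at least 0.1, and 8 without the 4 libraries with adipocyte markers. Anti-miR-21 against ACEi gave 1 with DESeq2 and 3 by the study's criterion. Signalling genes in ACEi against Veh numbered 22 with library totals, 22, 22 and 23 in the FPKM fits and 9 without the 4 libraries, and in Anti-miR-21 against ACEi 2 with DESeq2 and 1 by the study's criterion. Target genes in ACEi against Veh numbered 13 with library totals, 14, 13 and 14 in the FPKM fits and 11 by the study's criterion, and in Anti-miR-21 against ACEi 3, 0 and 4 with DESeq2, FPKM + 0.1 and the study's criterion. Apart from the scaling and the smaller number of genes or mice, the cause was not tested.

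Leaving out 1 mouse gave 32 to 33 members in Veh against WT, 22 to 26 in Anti-miR-21 against Veh, 8 to 13 in ACEi against Veh, 0 in Anti-miR-21 against ACEi, 23 to 26 and 24 to 28 for the treatments against WT, and 0 to 2 target genes in Anti-miR-21 against ACEi. Signs turned for Ltbr in ACEi against Veh (-0.26 with library totals and with each FPKM fit) and for Tnfsf10 in Veh against WT (0.49 with library totals, 0.43, 0.49 and 0.43 in the FPKM fits and 0.43 by the study's criterion). With library totals the median gene moved by 0.65 in Veh against WT, -0.38 under Anti-miR-21 and -0.32 under ACEi. Flow cell A alone was not run for ACEi, which has 1 mouse there. The 9 members with few counts were not tested with the filter. Counts and FPKM, which use different gene models, gave different levels for some members, such as Tnfsf15, Tnfrsf13b and Tnfrsf22. Tnfrsf13b had 13 and 11 counts but 0 FPKM in the WT mice A3 and A6. By FPKM its Anti-miR-21 mice (0.0453 to 0.649) overlapped Veh mice (0.463 to 0.743), and by CPM they did not. Tnfrsf22 overlapped between WT (0.104 to 0.619) and Veh (0.29 to 0.906) by FPKM and not by CPM.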

Other observations

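Among the 31 members that were higher in Veh than in WT, some mice stood at the top or bottom of their group for many genes, in WT as well as in treated mice. The WT mouse A6 was the highest of its 5 mice for 13 of the 31, and A18 was the lowest for 10. Their summed macrophage markers were 140 and 142 CPM, where the WT mice ranged from 139 to 152 CPM. Their summed fibroblast markers were 275 and 109 CPM, where the WT mice ranged from 109 to 275 CPM. The ACEi mouse A23 was the highest of its 3 mice for 18, with summed macrophage markers of 535 CPM, against 457 CPM in A11 and 449 CPM in A13. Summed fibroblast markers were 1278 CPM in A23, 1215 CPM in A11 and 1349 CPM in A13. The Anti-miR-21 mouse A8 was the highest of its 6 mice for 13 members, with summed macrophage markers of 522 CPM, and A22 was the lowest for 13, with 347 CPM. Summed fibroblast markers were 1104 CPM in A8 and 492 CPM in A22, where the Anti-miR-21 mice ranged from 492 to 1104 CPM. In Veh mice no mouse was highest for more than 8 of the 31. The part of macrophage or fibroblast content in this order was not tested. How often each mouse was highest or lowest over all genes was not counted. With few mice per group, some mouse must be highest for several of the 31. Some WT ranks rest on few counts, as in A6 with 6 counts of Tnfsf8, 4 of Lta and 10 of Tnf. The numbers are therefore not read as a trait of these mice.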
